A study of Mus musculus with 8 samples.

Results

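The S100 calcium-binding proteins are followed here through 7 genes of mouse chromosome 3, S100a4, S100a6, S100a10, S100a11, S100a13, S100a1 and S100a8. They are taken by name, with no threshold on a measured value, though the choice was made with earlier results of these data known. All 7 are among the 16647 gene rows of a single-cell count table. The cells are Tri-PyMT cells, a cultured mouse mammary tumour line from an animal that carried MMTV-PyMT, Fsp1-cre and Rosa26mT/mG. MMTV-PyMT is a viral oncogene under a mammary promoter. Rosa26mT/mG makes a red membrane protein until Cre recombinase removes its cassette and a green one afterwards. Fsp1 is another name for S100a4, so the promoter of a member of the family drives the Cre in every cell of both groups. Cells grown in DMEM with serum were sorted by fluorescence into a GFP+ and an RFP+ population and read out by Drop-seq, which captures the polyadenylated RNA of single cells on barcoded beads in droplets. The groups are thus the GFP+ labelled cells and the RFP+ labelled cells, which share the origin, the 3 alleles as inherited and the culture. The sort was on the colour made from Rosa26mT/mG, so the state of that allele is part of how the groups were formed.

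The labels list 8 samples, 4 per population, and these are 2 libraries per population on 2 lanes each. Lanes are pooled in the table, so each population has n = 2. The 4 libraries held between 2550319 and 3081009 counts over 1597 to 1998 used cells, with a median of 1166 to 1358 counts per cell. All 4 libraries had 2 barcodes in common before cells were left out, and among the cells used no barcode was shared. Whether they came from separate cultures is not stated, and a p-value here reflects the scatter of these libraries alone, which may be technical. The reporter rows ran counter to the sort names. CUSTOM_GFP stood at 99.7 and 104 CPM (counts set to the same total in each library) in the GFP+ labelled libraries, against 612 and 590 CPM in the RFP+ labelled ones. CUSTOM_RFP was at 2943 and 3053 CPM in the GFP+ labelled libraries, against 132 and 137 CPM in the RFP+ labelled ones. Every direction below is that of the libraries as labelled. Markers of tumour epithelium and of mesenchymal cells were present in both populations, while the leukocyte list summed to 6.93 and 8.23 CPM in the GFP+ labelled libraries and to 10.7 and 13.4 CPM in the RFP+ labelled ones.

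S100 proteins are small and usually work as dimers. Each chain has a pair of EF hands, loops that hold calcium, and calcium opens a groove that grips a partner protein. Most S100 genes of mammals lie together in the epidermal differentiation region, which is on chromosome 3 in the mouse. S100A4 binds the heavy chain of non-muscle myosin and is widely used as a mark of fibroblasts and of carcinoma cells that have turned mesenchymal. S100A6, or calcyclin, binds calcyclin-binding protein. S100A10 has lost calcium binding and is held in a complex with annexin A2. S100A11 binds annexin A1. S100A13 takes part in the release of growth factors and cytokines that lack a signal peptide. S100A1 is best known from heart muscle, where it regulates calcium handling. S100A8 pairs with S100A9 to form calprotectin, an abundant protein of neutrophils that epithelia also make.

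In the GENCODE M21 annotation of GRCm38, S100a4 lies on chromosome 3 from 90603771 to 90606045 on the plus strand. S100a6 (90612882 to 90624181) starts 9.11 kb further along and S100a8 (90668978 to 90670035) 65.2 kb further, both on the same strand. S100a13 (90514435 to 90524581) and S100a1 (90511034 to 90514392) stand back to back 89.3 and 89.4 kb before S100a4. Their starts are 43 bases apart, with S100a1 on the minus strand. S100a11 (93520488 to 93526287) and S100a10 (93555080 to 93564643) form a separate pair 2.92 and 2.95 Mb away, so the members are neighbours in 2 groups and not in one run. The promoter windows of 4 members are shown because they belong to the genes that differed between the populations and to S100a6, the nearest member to S100a4. Each holds 300 bases of GRCm38.p6, 250 before the RefSeq start and 50 after it, on the gene's strand, all of them the plus strand. RefSeq starts can differ from the GENCODE starts above, as that of S100a8 does. Capitals mark matches to a TATA box (TATAAA), to the binding motif of AP-1 factors (TGANTCA) and to the GC box bound by Sp1 (GGGCGG). An E-box bound by Zeb and Snail factors, CAGGTG, was searched too and had no match in these windows.
S100a4, chr3:90603520-90603819: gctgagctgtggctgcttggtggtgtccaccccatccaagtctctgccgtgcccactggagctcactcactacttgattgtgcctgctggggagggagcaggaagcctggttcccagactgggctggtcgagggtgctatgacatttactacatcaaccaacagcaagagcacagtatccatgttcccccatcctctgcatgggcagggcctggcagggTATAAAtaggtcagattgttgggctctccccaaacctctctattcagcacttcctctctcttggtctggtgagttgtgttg
S100a6, chr3:90612644-90612943: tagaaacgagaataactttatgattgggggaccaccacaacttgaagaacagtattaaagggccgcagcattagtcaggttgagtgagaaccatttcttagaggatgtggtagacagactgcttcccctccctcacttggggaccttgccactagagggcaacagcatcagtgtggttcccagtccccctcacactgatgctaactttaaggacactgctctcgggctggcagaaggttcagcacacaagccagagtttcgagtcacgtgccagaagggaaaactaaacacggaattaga
S100a8, chr3:90668821-90669120: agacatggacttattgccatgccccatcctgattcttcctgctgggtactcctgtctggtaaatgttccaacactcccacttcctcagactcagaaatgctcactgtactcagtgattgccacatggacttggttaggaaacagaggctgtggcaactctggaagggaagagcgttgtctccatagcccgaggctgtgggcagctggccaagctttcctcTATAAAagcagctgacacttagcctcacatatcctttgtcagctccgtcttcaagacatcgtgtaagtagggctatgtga
S100a11, chr3:93520246-93520545: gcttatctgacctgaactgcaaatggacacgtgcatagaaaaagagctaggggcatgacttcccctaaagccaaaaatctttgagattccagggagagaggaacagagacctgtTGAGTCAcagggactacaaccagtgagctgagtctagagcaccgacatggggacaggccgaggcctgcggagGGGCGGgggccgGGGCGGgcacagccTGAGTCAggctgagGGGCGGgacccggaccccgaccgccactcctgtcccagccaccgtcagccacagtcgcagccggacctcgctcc
The windows of S100a4 and S100a8 each had TATAAA, beginning 31 and 30 bases before the RefSeq start. By the GENCODE coordinates above, the TATAAA of S100a8 lies after the start of the gene. The window of S100a11 had no TATAAA but held 2 TGANTCA and 3 GGGCGG matches. The window of S100a6 had no match to any of the 4 motifs, and neither did those of S100a1 and S100a13, which share 204 bases. The S100a1 window too is set on a RefSeq start that differs from the GENCODE one. Among 32817 promoter windows of that length, with both strands read, 13.6% held TATAAA, 7.81% TGANTCA, 20.2% CAGGTG and 35.6% GGGCGG. Of the 7 members 6 had an entry in the promoter table. These matches describe letters and do not show that a factor binds.

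Between the populations 1 member rose and 2 fell. S100a4 was about 2.99-fold higher in the GFP+ labelled libraries, S100a8 was at 0.520 of its level in the RFP+ labelled libraries, and S100a11 was at 0.761 of it. S100a6, S100a10, S100a13 and S100a1 did not pass. All 7 members were high enough to test, and 3 of 7 were called by edgeR's quasi-likelihood test at a Benjamini-Hochberg adjusted p under 0.05, where 30.5% of all 7595 genes tested were called. Of all genes 15.7% were called higher and 14.9% lower in the GFP+ labelled libraries, so the number of members called is near the background and is not a result about the family. The sizes of the individual changes follow.

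S100a4 was at 1843 and 2114 CPM in the GFP+ labelled libraries and at 648 and 676 CPM in the RFP+ labelled ones. Both GFP+ labelled libraries lay far above both RFP+ labelled ones. The sort was on a reporter switched by Cre under the S100a4 promoter, so the populations were not formed independently of S100a4. The log2 fold of GFP+ over RFP+ labelled libraries was 1.57 ± 0.057 (SE, edgeR adjusted p = 8.25e-25). Fibroblasts express S100a4, and the 4 fibroblast genes in the table (Col1a1, Col3a1, Pdgfra and Dcn) summed to 25 and 19 counts in the GFP+ labelled libraries and to 7 and 6 in the RFP+ labelled ones. The mesenchymal list summed to 4168 and 4285 CPM in the GFP+ labelled libraries and to 2518 and 2386 CPM in the RFP+ labelled ones, and the epithelial list to 812 and 785 CPM in the GFP+ labelled and 1861 and 1919 CPM in the RFP+ labelled libraries. These lists moved with the populations, and their part in the differences of S100 genes was not tested. By size of its log2 fold S100a4 stood at place 31 among the 7595 genes tested. Its annotated exons share 302 bases with Gm42674, a gene model on the same strand, and how reads in those bases were counted is not given in the sources used here.

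S100a6, the next member along the chromosome, was at 8734 and 8855 CPM in the GFP+ labelled libraries, against 8028 and 8230 CPM in the RFP+ labelled ones. The libraries did not overlap, as was so for 64.9% of all genes tested, but the difference was small. Its log2 fold was 0.10 ± 0.046 (SE, edgeR adjusted p = 0.0920). The call depended on the setting. On library totals without TMM factors the log2 fold was 0.11 (edgeR adjusted p = 0.0338). With offsets for transcript length and GC content it was 0.32 (edgeR adjusted p = 5.15e-08). Without single libraries it ran from 0.08 to 0.13. For every 100 S100a6 counts there were 21.1 and 23.9 S100a4 counts in the GFP+ labelled libraries and 8.07 and 8.22 in the RFP+ labelled ones. That ratio is taken within a library and does not depend on scaling, so the transcripts of these near neighbours changed unequally.

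S100a5, which lies between S100a4 and S100a6, had 3 and 4 counts in the GFP+ labelled libraries and 3 and 3 in the RFP+ labelled ones, too few to test. S100a3, a gene known from the hair cuticle that lies just before S100a4, was at 17.3 ± 2.70 CPM (SD, n = 2) in the GFP+ labelled and 15.2 ± 2.66 CPM in the RFP+ labelled libraries. Its log2 fold was 0.18 ± 0.23 (edgeR adjusted p = 0.595). Of these genes beside S100a4, S100a3 thus gave no call, at a low level with a wide error, and S100a5 could not give one.

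**Figure D1:**
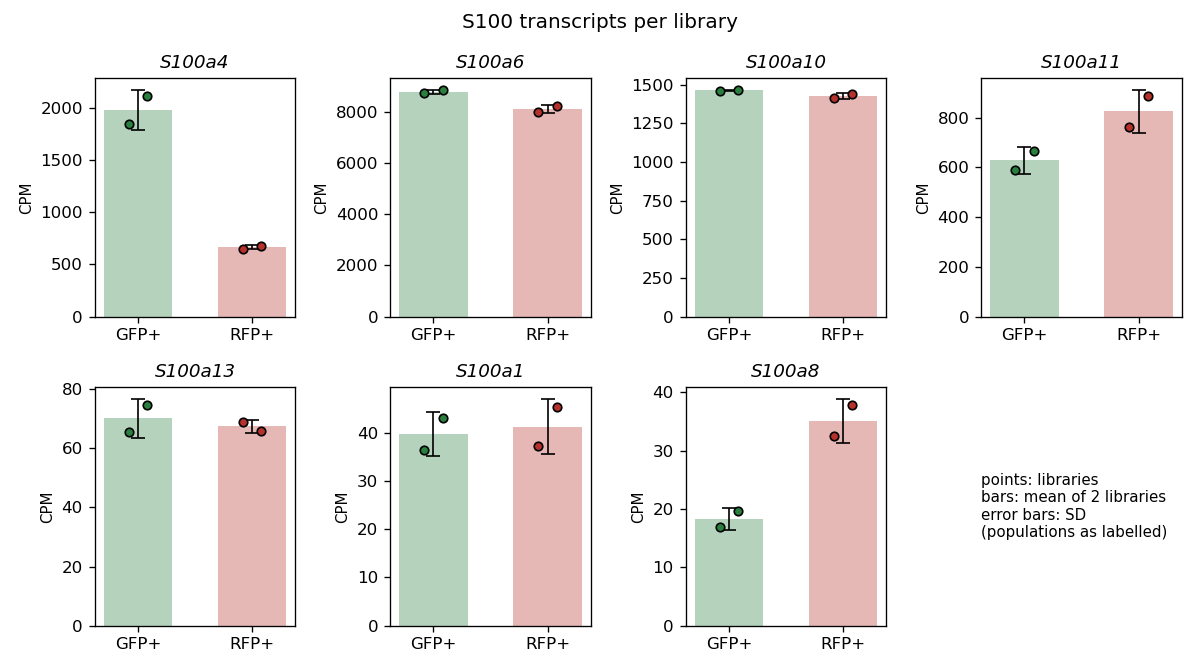
CPM of each S100 member (vertical axis, from 0) in the GFP+ and the RFP+ labelled libraries, with points for libraries, bars for the mean of 2 and error bars for the SD. S100a4 averaged 1979 and 662 CPM and S100a8 18.3 and 35.1 CPM in the GFP+ and the RFP+ labelled libraries, while the S100a10 bars are nearly level.

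S100a11 fell. It was at 589 and 668 CPM in the GFP+ labelled libraries and at 763 and 887 CPM in the RFP+ labelled ones. The libraries did not overlap, though the highest GFP+ labelled and the lowest RFP+ labelled library lay close to each other. Its log2 fold was -0.41 ± 0.063 (SE, edgeR adjusted p = 2.33e-06). DESeq2's Wald test, which called 9.66% of all genes (4.79% higher and 4.87% lower), gave the same log2 fold of -0.41 (adjusted p = 0.0610) and did not call it. Offsets for length and GC content gave -0.24. Its transcript has at least 90% identity over 100 bases or more with 5 other gene models, among them the pseudogene S100a11-ps and Gm12854 (99.0% over 297 bases). None of these is a row of the table, so reads from such copies cannot be told apart and the level of S100a11 is uncertain.

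S100a10, its neighbour on the chromosome, was at 1464 ± 3.04 CPM (SD, n = 2) in the GFP+ labelled and 1428 ± 19.1 CPM in the RFP+ labelled libraries. The log2 fold was 0.02 ± 0.049 (edgeR adjusted p = 0.768), and its normal 95% interval was -0.07 to 0.12. With length and GC offsets it was 0.20 (adjusted p = 0.0011). Annexin A2, the partner of S100A10, had the following values beside it. Anxa2 was at 1507 and 1541 CPM in the GFP+ labelled libraries and at 1766 and 1716 CPM in the RFP+ labelled ones, a log2 fold of -0.21 ± 0.049 (edgeR adjusted p = 0.00117). With the offsets that fold was -0.06 (adjusted p = 0.385).

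S100a8 fell as well. It was at 16.9 and 19.6 CPM in the GFP+ labelled libraries and at 32.5 and 37.8 CPM in the RFP+ labelled ones. These values rest on 44 and 50 counts in the GFP+ labelled libraries and on 100 and 113 in the RFP+ labelled ones. The populations did not overlap. The log2 fold was -0.95 ± 0.18 (SE, edgeR adjusted p = 5.47e-05), and DESeq2 gave -0.96 (adjusted p = 0.0180). S100a9, which encodes the partner of S100A8, was not analysed here, nor were Elane, Mpo and Csf3r of the neutrophil list. Ly6g, a surface marker of mouse neutrophils and the one gene of that list analysed, had 0 and 1 counts in the GFP+ labelled libraries and 0 and 0 in the RFP+ labelled ones.

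S100a8 is a gene of neutrophils, so leukocyte genes are given beside it. The leukocyte list had 18 and 21 counts in the GFP+ labelled libraries and 33 and 40 in the RFP+ labelled ones, and Lyz2 was at 0 in all 4. Ptprc, which encodes the common leukocyte antigen, had 0 and 0 counts in the GFP+ labelled libraries and 2 and 0 in the RFP+ labelled ones. In cells thinned to 1000 counts, those with an S100a8 count numbered 23 and 23 in the GFP+ labelled and 42 and 55 in the RFP+ labelled libraries. None of these cells had a count of any of the 6 leukocyte genes in the table, while a count of Krt8 or Krt18 was present in 43.5% and 47.8% of them in the GFP+ labelled and in 71.4% and 56.4% in the RFP+ labelled libraries. Among cells without an S100a8 count these keratins were present in 38.1% and 37.5% in the GFP+ labelled and in 71.0% and 72.7% in the RFP+ labelled libraries. The share with keratin counts was thus higher among S100a8 cells than among the others in 3 libraries and lower in library 2 labelled RFP+, over few cells. Leukocyte counts were rare in other cells too. Of cells with S100a11, 2 of 614 and 5 of 586 had one in the GFP+ labelled libraries. In the RFP+ labelled ones 12 of 807 and 12 of 795 did. At such rates their absence from the few S100a8 cells cannot tell what those cells are. The part of leukocytes in the S100a8 difference was not tested.

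S100a13 was at 65.4 and 74.9 CPM in the GFP+ labelled libraries and at 69.1 and 65.9 CPM in the RFP+ labelled ones. The populations overlapped, and the log2 fold was 0.04 ± 0.11 (SE, edgeR adjusted p = 0.813). S100a1 was at 36.6 and 43.1 CPM in the GFP+ labelled libraries and at 37.3 and 45.5 CPM in the RFP+ labelled ones. Its log2 fold was -0.07 ± 0.15 (edgeR adjusted p = 0.754), and its normal 95% interval of -0.35 to 0.22 allows changes of moderate size. This back-to-back pair gave no call under any setting in which it was tested, and the sign of both folds changed between settings.

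Of the 8 other S100 rows 2 were tested and neither passed. S100a16, a member expressed in many tissues, was at 22.7 and 14.1 CPM in the GFP+ labelled libraries and at 10.7 and 13.7 CPM in the RFP+ labelled ones. The libraries did not overlap but library 2 labelled GFP+ lay close to the RFP+ labelled ones. Its log2 fold was 0.58 ± 0.25 (SE, edgeR adjusted p = 0.0676), and passed at 0.0105 once library 2 labelled GFP+ was left out, at 0.0434 in cells with at least 1000 counts and at 0.0139 with length and GC offsets. Single libraries decided its size: the log2 fold was 0.20 (adjusted p = 0.683) without library 1 labelled GFP+ and 0.41 (adjusted p = 0.343) without library 1 labelled RFP+, against 0.87 without library 2 labelled GFP+. S100a7a had 14 and 17 counts in the GFP+ labelled libraries and 22 and 19 in the RFP+ labelled ones. S100a14, a gene of epithelia, had 1 and 1 counts in the GFP+ labelled libraries and 1 and 2 in the RFP+ labelled ones. S100a2, S100b and S100g had 2 or fewer in every library.

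All 15 S100 rows together held 1.28% and 1.33% of counts in the GFP+ labelled libraries and 1.10% and 1.14% in the RFP+ labelled ones. Within them S100a4 made up 14.4% and 15.9% of the S100 counts in the GFP+ labelled libraries and 5.87% and 5.92% in the RFP+ labelled ones. S100a6 made up 68.3% and 66.7% in the GFP+ labelled and 72.8% and 72.0% in the RFP+ labelled libraries. These are shares of counts and not levels per transcript length, so they show how the makeup differed between populations and not which gene was expressed more.

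Other genes near S100a4 are a measure of the region. Within 1 Mb of its start 15 genes outside the S100 family were tested, of which 4 rose, none fell and 11 did not pass, or 26.7% called against 30.5% of all genes. DESeq2 called 1 of them. Their median log2 fold was -0.01, that of all genes 0.00. Ubap2l was at 414 and 423 CPM in the GFP+ labelled libraries and at 287 and 295 CPM in the RFP+ labelled ones, a log2 fold of 0.51 ± 0.061 (edgeR adjusted p = 1.31e-08). Ube2q1, which encodes a ubiquitin-conjugating enzyme, had a log2 fold of 0.34 (adjusted p = 0.00361), and Tpm3, a tropomyosin gene, one of 0.16 with 0.0117. DESeq2 called neither. Leaving out library 1 labelled GFP+ took Ube2q1 to an adjusted p of 0.0525. Leaving out library 1 labelled RFP+ took Tpm3 to 0.251, and leaving out library 2 labelled GFP+ took it to 0.0572. Ilf2 had a log2 fold of -0.13 and an adjusted p of 0.161. Rab13, a small GTPase gene named after its value was seen, had a log2 fold of 0.65 (adjusted p = 0.00106). Near S100a10 and S100a11 a single other gene was tested, Mrpl9, with a log2 fold of 0.14 and an adjusted p of 0.498.

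**Figure D2:**
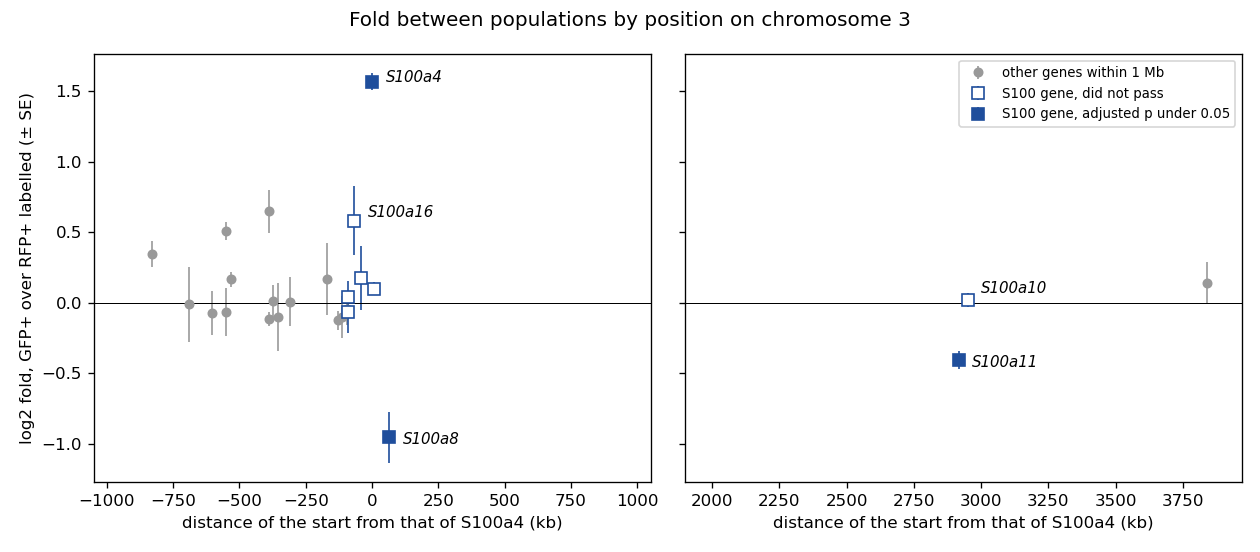
Log2 fold of GFP+ over RFP+ labelled libraries (vertical axis, ± SE) against the distance of each gene's start from that of S100a4 in kb. Squares are S100 genes, filled at an edgeR adjusted p under 0.05, and grey points are other tested genes within 1 Mb of S100a4, S100a10 or S100a11. S100a4 at 1.57 stands above every other gene plotted, S100a6 beside it is at 0.10 and S100a8 at -0.95.

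Partners and targets of S100 proteins moved in both directions. Of 28 genes on a list of such partners and related genes 21 were tested, of which 6 rose, 3 fell and 12 did not pass, with a median log2 fold of -0.05. That is 42.9% called, against 30.5% of all genes. Myh9, the non-muscle myosin heavy chain that S100A4 binds, was at 149 and 142 CPM in the GFP+ labelled libraries and at 101 and 96.0 CPM in the RFP+ labelled ones, a log2 fold of 0.55 ± 0.087 (edgeR adjusted p = 3.34e-06). Ppfibp1, or liprin beta, another partner of S100A4, had a log2 fold of 0.49 ± 0.069 (adjusted p = 4.12e-07). Myh10, a related myosin heavy chain, was at -0.05 (adjusted p = 0.714).

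Ahnak, a giant scaffold bound by S100A10 and annexin A2, was at 333 and 335 CPM in the GFP+ labelled libraries and at 217 and 198 CPM in the RFP+ labelled ones. Its log2 fold was 0.67 ± 0.066 (edgeR adjusted p = 9.23e-11), and 0.34 (adjusted p = 9.87e-05) with length and GC offsets. Cacybp, the partner of S100A6, was at 652 and 629 CPM in the GFP+ labelled and at 642 and 619 CPM in the RFP+ labelled libraries (adjusted p = 0.926). Anxa1, the partner of S100A11, had a log2 fold of -0.05 (adjusted p = 0.530). Myh10, Cacybp and Anxa1 are not among the largest changes of the list and are named as partners. Tagln2, an actin-binding protein gene on the list, had the largest fall there, to 397 and 423 CPM in the GFP+ labelled libraries, against 767 and 794 CPM in the RFP+ labelled ones.

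Of 8 annexin genes tested 2 fell, none rose and 6 did not pass, with a median of -0.17. That is 25.0% called, against 30.5% of all genes, so the count is not a result about annexins. The annexins that fell were Anxa2 and Anxa3, and Anxa3 fell by 0.42 on the log2 scale (edgeR adjusted p = 2.81e-08). Anxa4 was at -0.14 (adjusted p = 0.380) and Anxa7 at -0.26 (adjusted p = 0.0927). Of 34 tested genes with EF hands outside the S100 family 8 rose, 4 fell and 22 did not pass, or 35.3% called, with a median of -0.02. That share is near the 30.5% of all genes. Sparc, a matrix protein, had a log2 fold of 0.86 (adjusted p = 3.9e-16), Capn2, a calpain protease, 0.69 (3.44e-07) and Calu, calumenin of the secretory pathway, 0.67 (2.7e-09). Ehd2, an endocytic ATPase, was at 0.42 (adjusted p = 0.00882), and lost the call at 0.0727 once library 1 labelled GFP+ was left out, and DESeq2 did not call it.

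Cell by cell, S100a4 was both found in more cells and counted more often per cell in the GFP+ labelled libraries. After each cell was thinned to 1000 counts, 1103 of 1419 and 1010 of 1233 cells in the GFP+ labelled libraries had an S100a4 count, or 77.7% (exact Clopper-Pearson 95% interval 75.5 to 79.9) and 81.9% (79.7 to 84.0). In the RFP+ labelled libraries 648 of 1545 and 597 of 1423 cells had one, or 41.9% (39.5 to 44.5) and 42.0% (39.4 to 44.6). The intervals of the populations lay far apart, and they cover counting error only. With 2 libraries a side an exact permutation test cannot go below 0.33, so shares are given without a test. Before thinning the mean share was 85.4% in the GFP+ labelled and 50.8% in the RFP+ labelled libraries. Cells with 4 or more S100a4 counts made up 14.7% and 19.9% in the GFP+ labelled libraries and 2.27% and 2.04% in the RFP+ labelled ones, and cells with exactly 1 were about as common in both, at 25.6% and 24.9% in the GFP+ labelled and 26.6% and 26.4% in the RFP+ labelled libraries. The 2 populations thus overlapped widely in thinned S100a4 counts per cell. The means were 1.91 and 2.15 counts in the GFP+ labelled and 0.664 and 0.674 in the RFP+ labelled libraries. At such low means the sampling of counts alone spreads cells over these classes, so overlap in expression cannot be read from them.

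**Figure D3:**
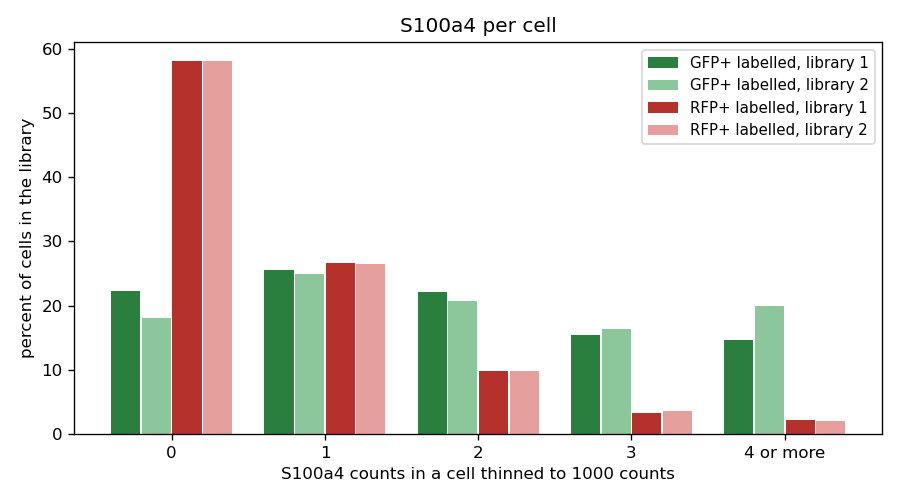
Percent of cells in each library (vertical axis) with 0, 1, 2, 3 and 4 or more S100a4 counts after each cell was thinned to 1000 counts, for the GFP+ and the RFP+ labelled libraries. Cells without a count make up 22.3% and 18.1% in the GFP+ labelled libraries and 58.1% and 58.0% in the RFP+ labelled ones.

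No cell type that should lack S100a4 is defined in these cultures, so a share from free RNA could not be read from one. The rarer reporter row is given beside it, though its share depends on its own level and cannot stand in for that of another gene. CUSTOM_GFP had a count in 8.53% and 9.33% of cells in the GFP+ labelled libraries and CUSTOM_RFP in 12.2% and 12.4% of cells in the RFP+ labelled ones, at the same thinned depth. The shares for S100a4 were well above these, but so were its CPM, so the part of free RNA cannot be judged from this. S100a6 was found in 99.8% to 99.9% of cells in every library, and S100a10 in 74.4% and 75.2% of cells in the GFP+ labelled and 74.0% and 74.1% in the RFP+ labelled libraries. S100a11 was found in 43.3% and 47.5% of cells in the GFP+ labelled and in 52.2% and 55.9% in the RFP+ labelled libraries. S100a13 was found in 6.46% to 7.87% of cells, S100a1 in 3.37% to 5.34% and S100a8 in 1.62% to 3.87%. These shares lay below those of the rarer reporter row, as did the CPM of these genes. Such low shares rest on few counts and are not read as expression in single cells.

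S100a4 varied more from cell to cell than genes of like level. The variance of its thinned counts over their mean was 1.58 and 1.52 in the GFP+ labelled libraries and 1.51 and 1.62 in the RFP+ labelled ones. Genes with a mean near that of S100a4 in the same library had a median of 1.08 and 1.10 in the GFP+ labelled and 1.08 and 1.09 in the RFP+ labelled libraries. Of those genes 2 of 49 and 4 of 42 varied more than S100a4 in the GFP+ labelled libraries, and 0 of 111 and 0 of 102 in the RFP+ labelled ones. S100a10, at 1.16 and 1.09 in the GFP+ labelled and 1.18 and 1.13 in the RFP+ labelled libraries, was close to the medians for its own level, which ran from 1.08 to 1.10. A high spread was not particular to S100a4. S100a6 was at 1.58 and 1.48 in the GFP+ labelled and 1.77 and 1.89 in the RFP+ labelled libraries, with only 1 or 2 genes of like level. S100a8 was at 1.213 and 1.498 in the GFP+ labelled and 1.019 and 1.155 in the RFP+ labelled libraries, on few counts. Of genes at its level 28 of 1144 and 2 of 1065 varied more in the GFP+ labelled libraries. In the RFP+ labelled ones 562 of 1096 and 42 of 1099 did. This is a description of the cells of these libraries.

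Cells with an S100a4 count held more S100a6. In cells thinned to 1000 counts, S100a6 averaged 8.95 and 8.94 counts in cells with S100a4 and 8.16 and 8.70 in cells without it in the GFP+ labelled libraries. In the RFP+ labelled libraries it averaged 8.86 and 8.94 counts in cells with S100a4 and 7.54 and 7.59 in cells without it. The ratio was 1.10 and 1.03 in the GFP+ labelled and 1.18 and 1.18 in the RFP+ labelled libraries. Cells with S100a4 had nearly the same S100a6 mean in all 4 libraries, and the cells without it were lower in the RFP+ labelled ones. The cells with S100a4 differed in makeup, so these means do not compare like cells. Those with 3 or more S100a4 counts were 426 of 1103 and 447 of 1010 in the GFP+ labelled libraries. In the RFP+ labelled ones they were 86 of 648 and 81 of 597. By S100a4 count, S100a6 in the RFP+ labelled libraries averaged 8.31 and 8.56 counts in cells with 1 S100a4 count, 9.68 and 9.30 with 2 and 10.0 and 10.1 with 3 or more. In the GFP+ labelled libraries these means were 8.53 and 8.66, then 9.01 and 8.59, then 9.27 and 9.33. Cells are not replicates, and no test was made.

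For S100a13 the ratio was 0.849 and 3.64 in the GFP+ labelled and 1.26 and 1.03 in the RFP+ labelled libraries, over few counts. Without thinning it was 1.23 and 2.02 in the GFP+ labelled and 1.55 and 1.47 in the RFP+ labelled libraries. Unthinned cells differ in total counts, and S100a10 then ran from 1.24 to 1.34 and S100a11 from 1.18 to 1.35. S100a8 ran from 0.455 to 1.49. The part of depth in these unthinned ratios was not tested. At 2000 counts the S100a13 ratio was 0.597 and 0.714 in the GFP+ labelled and 2.21 and 1.31 in the RFP+ labelled libraries. The ratio of S100a10 in cells with over cells without S100a4 was 1.13 and 1.05 in the GFP+ labelled and 1.13 and 1.04 in the RFP+ labelled libraries. In cells thinned to 2000 counts its mean over libraries was 0.957. For S100a11 the ratio was 0.958 and 1.02 in the GFP+ labelled and 1.02 and 0.835 in the RFP+ labelled libraries. S100a11 therefore showed no common direction in thinned cells. Among genes of cell identity, Vim (vimentin) had ratios of 1.22 and 1.23 in the GFP+ labelled and 1.39 and 1.40 in the RFP+ labelled libraries. Epcam, an epithelial adhesion gene, had 0.628 and 0.669 in the GFP+ labelled and 0.729 and 0.577 in the RFP+ labelled libraries, and Krt18, a keratin of simple epithelia, 0.682 and 0.644 in the GFP+ labelled and 0.879 and 0.867 in the RFP+ labelled ones. Krt18 nevertheless differed between populations among cells with S100a4, at 0.339 and 0.355 counts in the GFP+ labelled and 0.909 and 0.967 in the RFP+ labelled libraries. The row of the rarer reporter in the RFP+ labelled libraries, CUSTOM_RFP, was present in 13.7% and 12.6% of cells with S100a4 and in 11.1% and 12.3% of cells without it.

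**Figure D4:**
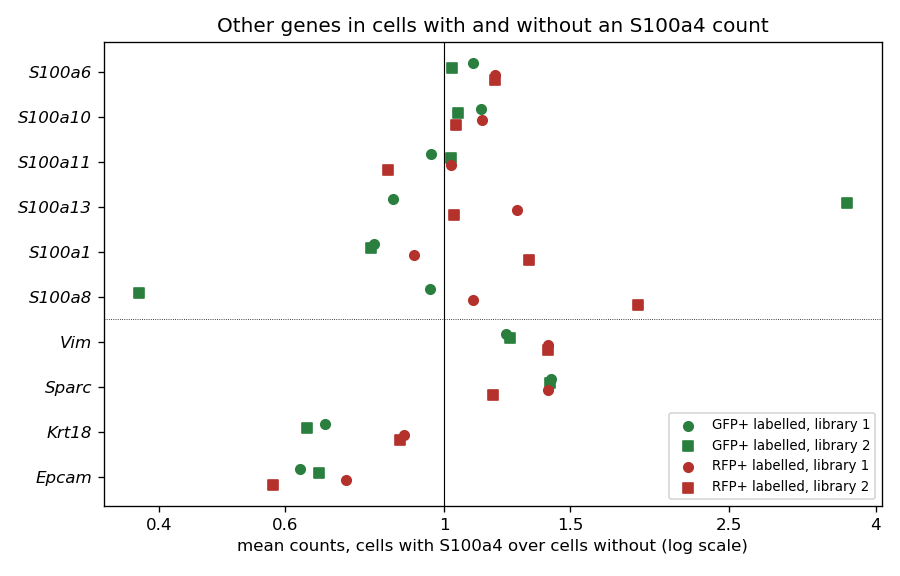
Mean counts in cells with an S100a4 count over the mean in cells without one (horizontal axis, log scale) for 6 S100 genes and 4 genes of cell identity, in cells thinned to 1000 counts. Points are libraries, green for GFP+ and red for RFP+ labelled. S100a6 lies between 1.03 and 1.18, Vim between 1.22 and 1.40 and Epcam between 0.577 and 0.729, while the rare S100a13, S100a1 and S100a8 scatter widely.

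The genes most like S100a4 were named by 2 measures among 2057 other genes with at least 100 CPM in either population. Over the 4 libraries, the smallest distances of log2 CPM centred on each gene were those of Emp3 (0.225), Sema3a (0.278), Prkg2 (0.288), Mgp (0.463) and Dst (0.571). Emp3, which encodes a small membrane protein, was at 154 and 146 CPM in the GFP+ labelled libraries and at 52.9 and 49.9 CPM in the RFP+ labelled ones. The log2 folds of these 5 genes were 1.532, 1.531, 1.305, 1.121 and 0.998. With 2 libraries a side the distance mostly orders genes by how near their fold is to that of S100a4. All but Mgp reached 100 CPM only in the GFP+ labelled libraries, so the list is no separate evidence of likeness. Across the cells of a library, on the log of counts scaled to 10000 per cell plus 1, the highest median Pearson correlations with S100a4 over the 4 libraries were those of Vim (0.193), S100a6 (0.170), Fth1 (0.162), Spp1 (0.161) and Sparc (0.111). All of these are weak, and the order among close values carries no weight. They were taken over all used cells without thinning, so the cells differ in depth. S100a6 had a correlation of 0.169 and 0.103 in the GFP+ labelled and 0.170 and 0.211 in the RFP+ labelled libraries. Without thinning, S100a10 and S100a11 had medians of 0.052 and 0.0063 and stood at places 52 and 909.

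**Figure D5:**
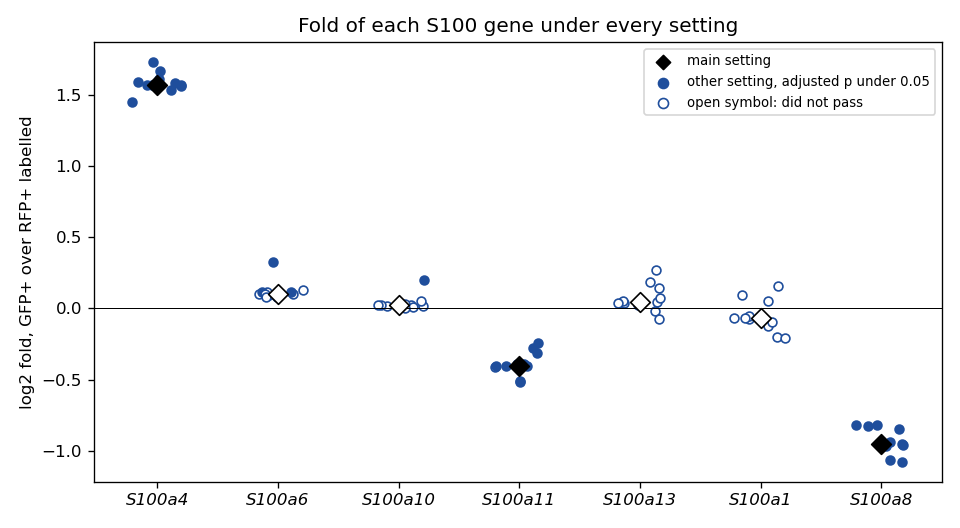
Log2 fold of GFP+ over RFP+ labelled libraries (vertical axis) for each S100 member under the main setting (diamonds) and every other setting in which it was tested (circles), filled at an adjusted p under 0.05. S100a4 stays between 1.45 and 1.73 and S100a8 between -1.08 and -0.82, S100a6 and S100a10 pass in 3 settings and in 1, and S100a13 and S100a1 spread to both sides of 0. The DESeq2 point of S100a11, which did not pass, lies under its diamond.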

How the data were processed

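Drop-seq libraries of sorted single cells were made with Nextera tagmentation, per the labels' protocols. The submitters' processing notes name GRCm38. The authors deposited raw counts per gene and cell, with whole values up to 342. How reads were aligned and counted, how cells were selected and whether molecular identifiers were collapsed is not given in the sources used here. Column names separate the 4 libraries. Cells with under 500 counts or at least 20% mitochondrially encoded counts were left out (10 of 7400). Doublets were not removed. Counts were summed per library and tested over the whole table by the quasi-likelihood F test of edgeR 4.0.16 (R 4.3.3), with TMM factors between 0.99 and 1.01 and Benjamini-Hochberg adjusted p under 0.05 as the call. Genes needed 10 CPM in either population and 20 counts in all. Standard errors come from the fold and F, whose dispersion is moderated across genes. The fit was tested on simulated data. Measures per cell use cells with at least 1000 counts, thinned to that number. The correlations that named genes like S100a4 are an exception. They use every used cell, scaled to 10000 counts without thinning. Similar transcripts were sought with blastn in GENCODE M21. Named genes are the members, all S100 rows, per list the 4 largest folds at 50 CPM or more, and the 5 genes most like S100a4 by each measure. Genes outside this rule (Rab13, Myh10, Cacybp and Anxa1) were named after their values were seen. Mrpl9, below 50 CPM, is outside it too and is named as the only tested gene of its list. Members and lists were chosen with earlier results of these data known. Alternatives were DESeq2 1.42.0, other scalings, filters and depths, length and GC offsets (95.4% of genes had values) and leaving out each library.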

Additional observations from a re-analysis of the deposited data

Results flagged for a closer look

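The relation of S100a8 to S100a4 lay below 1 in both GFP+ labelled libraries and above 1 in both RFP+ labelled ones at a depth of 1000 counts, and the difference was not tested. In cells thinned to 1000 counts, mean S100a8 in cells with over cells without an S100a4 count was 0.955 and 0.375 in the GFP+ labelled libraries and 1.10 and 1.86 in the RFP+ labelled ones. The mean ratios were 0.665 and 1.48, a difference of -0.814 of GFP+ minus RFP+ labelled libraries. The counts are small: in the GFP+ labelled libraries 18 of 1103 and 17 of 1010 cells with S100a4 had S100a8, as did 5 of 316 and 6 of 223 cells without it. In the RFP+ labelled libraries 19 of 648 and 32 of 597 cells with S100a4 had S100a8, as did 23 of 897 and 23 of 826 cells without it. The pattern was not seen at other depths. At 500 counts the ratios were 1.51 and 0.503 in the GFP+ labelled and 0.573 and 1.01 in the RFP+ labelled libraries. At 2000 counts they were 0.865 and 0.591 in the RFP+ labelled libraries, and in the GFP+ labelled ones none of the 41 and 17 cells without S100a4 had S100a8. Mean ratios of S100a1 lay on either side of 1 too, from 0.798 and 0.791 in the GFP+ labelled and 0.908 and 1.31 in the RFP+ labelled libraries.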

How the results depend on the processing

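S100a4 and S100a8 kept direction and call in every setting in which they were tested (12 and 11), and S100a11 in 11 of 12. Where the rest lost or gained a call, the cause was not tested. Over all genes the 2319 calls (1190 higher, 1129 lower) became 734 (364 and 370) with DESeq2 and 1398 (732 and 666) in thinned cells, 1873 (938 and 935) with length and GC offsets, and 1669 to 1829 without single libraries. The S100 rows called were 3 of 9 tested, or 33.3% against 30.5% of all genes. They were 2 with DESeq2 and 2 with a filter of 50 CPM. Without TMM factors they were 4, as in cells with at least 1000 counts. With length and GC offsets they were 6, where S100a6, S100a10 and S100a16 were higher too. Annexins called fell to 1 with the offsets. Neighbours of S100a4 called were 4, and 1 with DESeq2. Neighbours of S100a10 and S100a11 called were 0, but 1 without a filter and 0 to 2 without single libraries. Other EF-hand genes called were 12, but 6 with DESeq2 and 7 in thinned cells. The share of cells with S100a4 differed by 37.9 percentage points (GFP+ minus RFP+ labelled), by 34.6 without thinning, 32.3 at 500 counts and 33.0 at 2000. The mean ratio of S100a6 by S100a4 count was 1.12, and 1.38 without thinning and 1.22 at 2000 counts. Without one library of a population, the lone library is assumed to vary like the others. No paired analysis was possible because the replicate numbers in the titles count lanes, which the columns pool, and the columns do not carry them. Depth limits the rare members S100a13, S100a1 and S100a8.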
